A study of Mus musculus with 6 samples.

Results

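The 10 genes described here encode the cytokine-signalling relay of thymocytes and its feedback brakes: the kinases Jak1 and Jak3, the transcription factors Stat3, Stat5a and Stat5b, the inhibitors Socs1, Socs2, Socs3 and Cish, and the kinase gene Pim1. They were chosen by name from the 26332 genes of the count table, and all 10 were found by Entrez identifier and passed the filter on low counts. The libraries were made from CD25-positive, CD44-negative thymocytes, the double negative 3 (DN3) stage, of C57BL/6 mice. There were 4 wild-type mice (WT 1 to 3 female, WT 4 male) and 2 mice with a knockout of Tcf7, which encodes the transcription factor TCF-1 (KO 1 male, KO 2 female). Each library came from its own mouse. The sources used here give neither the ages, nor the part of Tcf7 removed, nor whether a Cre line was used.

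As background, interleukin-7 and related cytokines bind receptors that pair a private chain with a shared one. The receptor tails hold JAK1 and JAK3, which phosphorylate each other, the receptor and then STAT proteins. STAT5 pairs move to the nucleus and switch on survival and growth genes, and also Cish and Socs genes, whose proteins bind the receptor or the kinase and shut the signal down. Because STAT proteins drive them directly, transcripts of Cish and the Socs genes are often read as a record of recent cytokine signalling, whereas those of the kinases and STAT proteins mostly set the capacity for it. Early thymocytes depend on interleukin-7 through this route.

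KO 1 had 19589938 counts, KO 2 had 13673860 and the WT libraries had 23711513 to 41666797. Levels are given as CPM, that is, counts relative to library size, after TMM normalization for library composition. Tcf7 ranged from 2094 to 2326 CPM among WT mice, and the KO libraries held 1133 (KO 1) and 1022 CPM (KO 2), so its transcripts were lower but not absent. All 8 DN3 markers examined, among them Il2ra, Ptcra and Notch3, were detected in every library. Together they made up 4715 CPM of KO 1, 5277 CPM of KO 2 and 6859 to 7417 CPM of the WT libraries. These markers differed in direction. Il2ra, Ptcra, Notch3, Cd3g and Hes1 were below the WT range in both KO libraries. Dtx1 was above it, at 922 (KO 1) and 808 CPM (KO 2) beside 231 to 249 CPM in WT. Rag1 was at 521 CPM in KO 1 and 1953 CPM in KO 2, beside 1476 to 1925 CPM in WT. Rag2 split in the same way (32.6 and 114 CPM, beside 90.8 to 103 CPM in WT). KO 1 had counts for 13294 genes, KO 2 for 14384 and the WT libraries for 15788 to 16013. Mitochondrially encoded genes took 0.893% of the counts of KO 1, 1.78% of those of KO 2 and 2.61 to 2.92% of those of WT libraries. In such bulk samples, fewer cells of a type and less RNA per cell cannot be told apart.

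Pim1 rose in KO cells, no kinase or STAT gene passed the test, and the feedback genes had opposite or unequal values in the 2 KO mice. With edgeR's quasi-likelihood test, 1 of the 10 genes passed an adjusted p of 0.05 (Pim1, higher), 9 did not pass and none was lower. Over all 13294 genes tested, 30.7% passed (14.1% higher and 16.5% lower in KO). The median absolute log2 difference between KO and WT was 0.24 for the 10 genes and 0.37 over all genes tested. The gap between KO 1 and KO 2 had a median of 0.76 on the log2 scale for the 10 genes and 0.50 over all genes tested. Among the WT mice the median gap between the highest and the lowest library was 0.14 for the 10 genes and 0.23 over all genes tested.

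**Figure D1:**
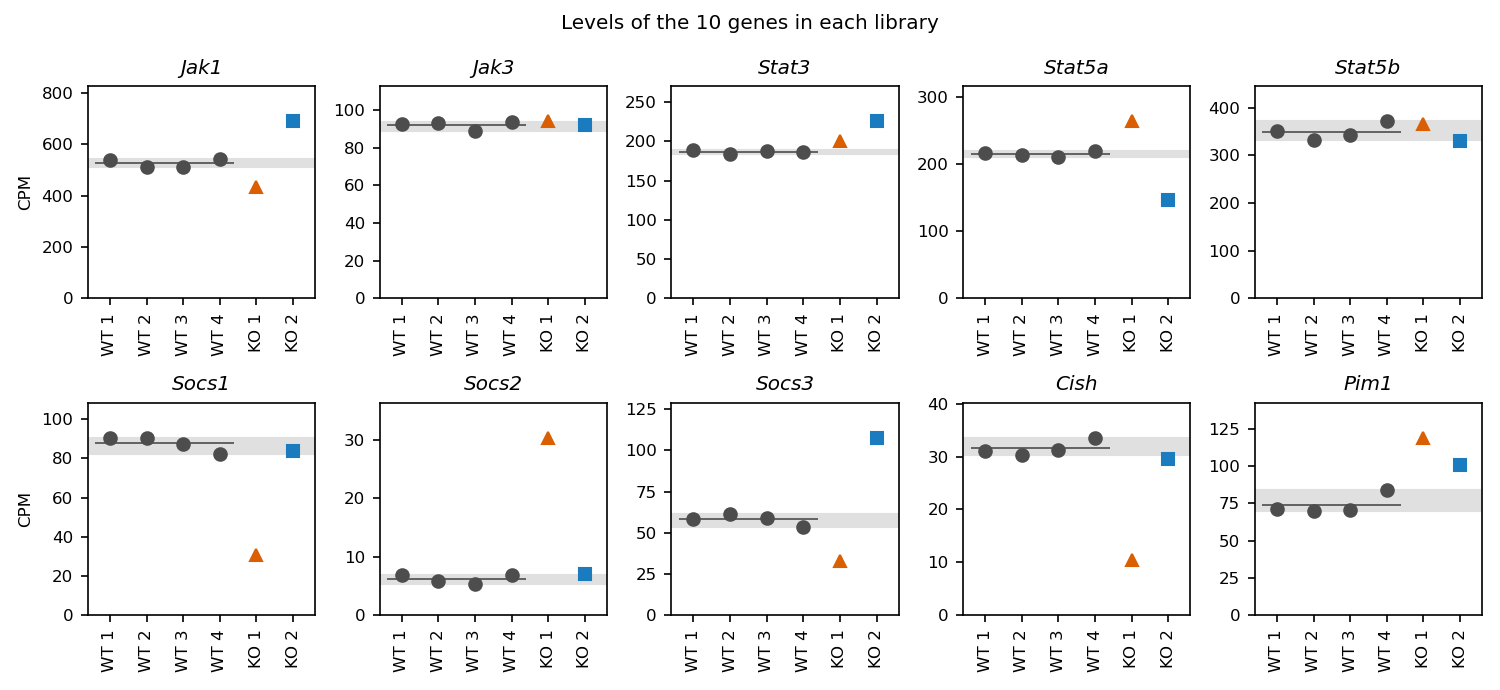
Level of each of the 10 genes in CPM (linear axis from 0) in the 4 WT libraries (circles), KO 1 (triangle) and KO 2 (square); the line is the WT mean and the grey band the WT range. KO 1 lies far below the band for Socs1 and Cish and far above it for Socs2, while both KO libraries lie above it for Pim1.

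Levels of different genes were compared per gene length, as CPM per kilobase of gene model (RPKM), over the WT libraries. Jak1, the kinase shared by most of these receptors, led with 99.1 RPKM ± 3.26 (SD, n = 4). Socs1, an inhibitor that binds JAK proteins, followed at 71.8 ± 3.18, above both Stat5b (64.2 ± 2.98) and Stat5a (55.5 ± 0.912). Pim1 (42.1 ± 3.89) and Stat3 (41.6 ± 0.491) came next, then Jak3 (22.5 ± 0.504) and Socs3 (21.3 ± 1.15). Cish, at 14.6 ± 0.644, and Socs2, at 2.29 ± 0.286, were the lowest. The WT ranges of 3 neighbouring pairs in this order overlapped: Socs1 with Stat5b, Pim1 with Stat3, and Jak3 with Socs3. WT DN3 cells thus held Socs1 transcripts at a level near that of Stat5b.

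**Figure D2:**
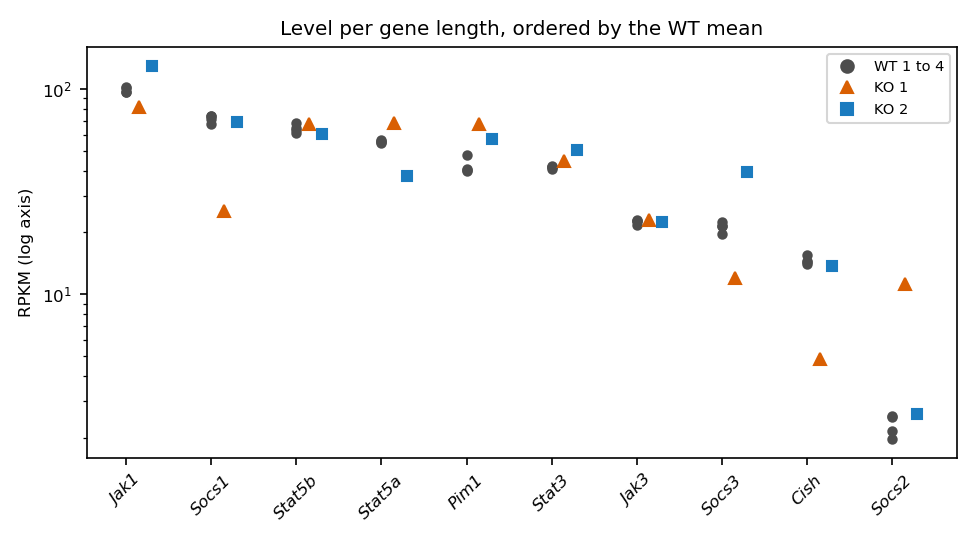
RPKM on a log axis for the 10 genes, ordered by the WT mean, with the 4 WT libraries (circles), KO 1 (triangle) and KO 2 (square). The order in WT runs from Jak1 at 99.1 to Socs2 at 2.29 RPKM, and in KO 1 Socs2 stands above Cish.

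Jak3, the kinase that sits on the shared γ chain, was the steadiest of the 10 genes. WT 1 to 4 held 92.5, 93.0, 88.9 and 93.4 CPM, KO 1 held 93.9 CPM and KO 2 held 92.2 CPM. KO 1 was the highest of the 6 and WT 3 the lowest, with KO 2 among the WT libraries. The log2 difference was 0.01 (SE 0.0665, adjusted p = 0.929), and its 95% interval ran from -0.16 to 0.18. Jak3 (Entrez 16453) lies on chromosome 8 at 71676383 to 71690577 (GRCm38), and 7.55% of its exonic bases are shared with Insl3.

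Jak1 (Entrez 16451, chromosome 4, 101151974 to 101265282) went in opposite directions in the 2 KO mice. WT 1 to 4 held 539, 510.0, 510.1 and 541 CPM, KO 1 held 434 CPM and KO 2 held 689 CPM. KO 1 thus lay below and KO 2 above every WT library. The log2 difference of 0.13 (SE 0.162, adjusted p = 0.593) averages these, with an interval from -0.28 to 0.54.

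Among the STAT genes, Stat5b (Entrez 20851), the more abundant of the STAT5 pair per gene length, stood close to its WT level in both KO mice. Its WT values were 350.0, 333, 342 and 371 CPM, beside 366 CPM in KO 1 and 329 CPM in KO 2. The log2 difference was -0.04 (SE 0.062, adjusted p = 0.65, interval -0.20 to 0.11). KO 1 lay inside the WT range and KO 2 just below it. Its neighbour Stat5a (Entrez 20850), which encodes a protein of largely shared function, had WT values of 217, 214, 212 and 219.8 CPM. KO 1, with 264 CPM, was above that range, and KO 2, with 147 CPM, below it. The log2 difference was -0.21 (SE 0.191, adjusted p = 0.444, interval -0.69 to 0.27). The ratio of KO 1 to KO 2 was 1.80 for Stat5a and 1.11 for Stat5b, so the 2 genes did not follow each other across the KO mice.

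Stat3, the factor used by interleukin-6 and interleukin-21 receptors, had WT values of 189, 184, 187 and 186 CPM, with 201 CPM for KO 1 and 226 CPM for KO 2. Both KO libraries lay above the WT range, which held for 22.9% of all genes tested. The log2 difference of 0.21 (SE 0.0683, interval 0.04 to 0.38) had an unadjusted p of 0.0254 and missed the threshold after adjustment (adjusted p = 0.0704). Stat5b, Stat5a and Stat3 (Entrez 20848) lie side by side on chromosome 11, from 100780731 to 100939594. Stat5a and Stat5b transcripts share sequence: 5.12% of the 75-base words of Stat5a occur in Stat5b, and 6.99% the other way, so a small part of their reads is uncertain. Stat3 and Stat5a exons overlap by 72 bases on opposite strands.

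Pim1, a STAT5 target that encodes a survival kinase, was the only gene of the 10 that passed the test, and it rose in both KO mice. WT 1 to 4 held 71.5, 69.8, 70.8 and 84.3 CPM, KO 1 held 119 CPM and KO 2 held 101 CPM. Both KO libraries lay above all WT libraries, of which WT 4 was the highest. The log2 rise was 0.51 (SE 0.0641, adjusted p = 0.00468, interval 0.34 to 0.67), which is 1.42-fold. It was 0.50 between the males and 0.51 between the females, the closest agreement of the sexes among the members after Jak3. The call was lost with limma-voom and a spread per genotype (adjusted p = 0.0764, range 3.89e-11 to 0.176 over 13 alternatives). Pim1 (Entrez 18712, chromosome 17, 29490785 to 29496111) shares 14.5% of its exonic bases with an antisense transcript, Gm26885, and the library kit does not mark strand.

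**Figure D3:**
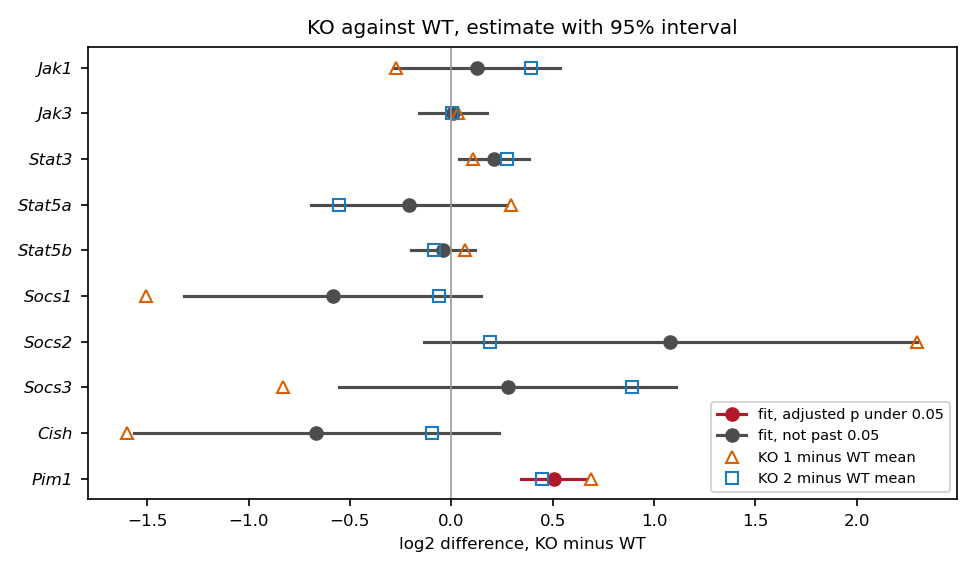
Log2 difference of KO against WT for each of the 10 genes: filled circles with bars are the fitted estimate and its 95% interval, open triangles KO 1 and open squares KO 2 minus the WT mean. The bar of Pim1 lies from 0.34 to 0.67 and both its open symbols are above 0, whereas for Socs3, Jak1 and Stat5a the open symbols fall on opposite sides of 0.

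The 4 feedback genes were those with the widest gaps between the KO mice. Each differed at least 2-fold between KO 1 and KO 2, and none of the other 6 genes did; over all genes tested 24.2% differed as much. None passed the test of KO against WT.

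Cish encodes CIS, which competes with STAT5 for the receptor tail. Its WT values were 31.1, 30.3, 31.3 and 33.6 CPM, with 10.4 CPM for KO 1 and 29.5 CPM for KO 2. KO 1 was 3.04-fold below the WT mean, and KO 2 was only just under the lowest WT library. Both KO libraries lay below the WT range for 28.6% of all genes tested. The log2 difference was -0.67 (SE 0.355, adjusted p = 0.212, interval -1.56 to 0.23). Cish (Entrez 12700) lies on chromosome 9 at 107296659 to 107302784, and 7.46% of its exonic bases are shared with the antisense transcript Gm17041.

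Socs1 blocks the kinase activity of JAK proteins and is a known brake on interleukin-7 signals in thymocytes. It followed Cish, with 90.5, 90.5, 87.3 and 82.3 CPM over the WT libraries, 30.9 CPM for KO 1 and 84.0 CPM for KO 2. KO 1 was 2.84-fold below the WT mean, while KO 2 lay inside the WT range. The log2 difference was -0.59 (SE 0.289, adjusted p = 0.182, interval -1.32 to 0.14). Socs1 (Entrez 12703) lies on chromosome 16 at 10783808 to 10785536.

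Socs3, which acts mainly on receptors that contain the gp130 chain, was also low in KO 1 but high in KO 2. The WT libraries held 58.5, 61.2, 58.9 and 53.7 CPM, KO 1 held 32.6 CPM and KO 2 held 108 CPM. KO 1 was 1.78-fold below the WT mean and KO 2 was 1.85-fold above it, so the fitted difference of 0.28 (SE 0.329, adjusted p = 0.562, interval -0.56 to 1.11) describes neither mouse. Socs3 (Entrez 12702) lies on chromosome 11 at 117966079 to 117970336.

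Socs2, best known as the inhibitor of growth hormone signals and also a STAT5 target, went the other way. The WT libraries held 6.88, 5.81, 5.29 and 6.78 CPM, KO 1 held 30.3 CPM and KO 2 held 7.02 CPM. KO 1 was 4.90-fold above the WT mean, whereas KO 2 exceeded the highest WT library only slightly, with 94 counts behind its value. The log2 difference was 1.08 (SE 0.481, adjusted p = 0.148, interval -0.14 to 2.30). The library with the least Cish and Socs1 was thus the one with the most Socs2. Over the 6 libraries, the genes whose log2 CPM was most like that of Socs2 among 10205 compared were Pgghg, Kri1 and Xylt1, each with Pearson r of 0.995 or more. KO 1 was the highest of the 6 libraries for each of these genes, so this likeness rests on 1 library.

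The upstream sequences of these inhibitors are shown because Cish, Socs1 and Socs3 were all lowest in KO 1. STAT dimers bind the palindrome TTCNNNGAA, which reads the same on both strands, and matches to it are in capitals. Windows of 300 bases around RefSeq start sites (GRCm38.p6) were matched for 9 of the 10 genes, 12 windows in all. No window was available for Socs2. The windows printed run from 250 bases before the start site through the first 30 bases after it, 5′ to 3′ on the gene's strand.
Cish (chr9:107296409-107296688, plus strand): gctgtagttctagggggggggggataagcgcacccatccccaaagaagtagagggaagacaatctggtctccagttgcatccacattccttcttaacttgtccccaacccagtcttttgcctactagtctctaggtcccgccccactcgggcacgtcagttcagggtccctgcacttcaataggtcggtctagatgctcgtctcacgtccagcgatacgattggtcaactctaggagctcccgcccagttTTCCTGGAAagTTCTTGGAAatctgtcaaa
Socs3 (chr11:117969337-117969616, minus strand): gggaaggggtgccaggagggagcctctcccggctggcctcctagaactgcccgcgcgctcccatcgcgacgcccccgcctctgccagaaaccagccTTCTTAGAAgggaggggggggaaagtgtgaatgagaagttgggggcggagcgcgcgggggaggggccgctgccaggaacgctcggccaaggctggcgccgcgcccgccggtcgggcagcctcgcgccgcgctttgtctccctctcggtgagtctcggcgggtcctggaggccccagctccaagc
Socs1 (chr16:10785507-10785786, minus strand): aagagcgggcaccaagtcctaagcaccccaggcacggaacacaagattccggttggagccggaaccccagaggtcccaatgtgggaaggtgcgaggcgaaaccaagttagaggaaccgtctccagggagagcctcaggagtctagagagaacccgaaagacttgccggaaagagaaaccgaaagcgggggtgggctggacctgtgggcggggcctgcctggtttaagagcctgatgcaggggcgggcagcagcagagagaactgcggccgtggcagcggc
Cish holds 2 matches, TTCCTGGAA beginning at the start site and TTCTTGGAA beginning 11 bases after it. Socs3 holds 1 match, TTCTTAGAA, beginning 154 bases before the start site of its window. That site lies 970 bases inside the gene span given above, and the end of the window was not found in the GENCODE transcripts of Socs3. The windows of Socs1, Pim1, Jak1, Jak3, Stat3, Stat5a and Stat5b hold none, and 8.30% of all 32851 RefSeq windows of this length hold at least 1. Some of these start sites also lie inside the gene span, those of Stat5b by 36434 and 8423 bases. The cores CTTTGAA and CTTTGAT, variants of the site bound by TCF and LEF factors, were searched on both strands and were found in none of the 12 windows, against 5.14% and 3.73% of all windows. Such matches describe letters and do not show binding, and a match outside these windows would not be seen.

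With 1 KO mouse of each sex, each KO mouse can also be set against WT mice of its own sex, as values with no test of the difference between the KO mice. KO 1 against WT 4 and KO 2 against WT 1 to 3 differed by a fitted log2 value of -1.62 for Cish, -1.57 for Socs3, -1.32 for Socs1, -0.72 for Jak1, 0.81 for Stat5a and 1.95 for Socs2, where a negative value means a lower KO to WT difference in the males. For Stat3 (-0.16), Stat5b (0.03), Pim1 (-0.01) and Jak3 (-0.003) the values were smaller. The first 6 of these values exceeded what the spread of the 3 WT females allows (adjusted p under 0.05), as did 54.7% of those of all genes tested, but no spread between KO mice enters that fit. A difference between the sexes and a difference between 2 individual mice cannot be told apart here.

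**Figure D4:**
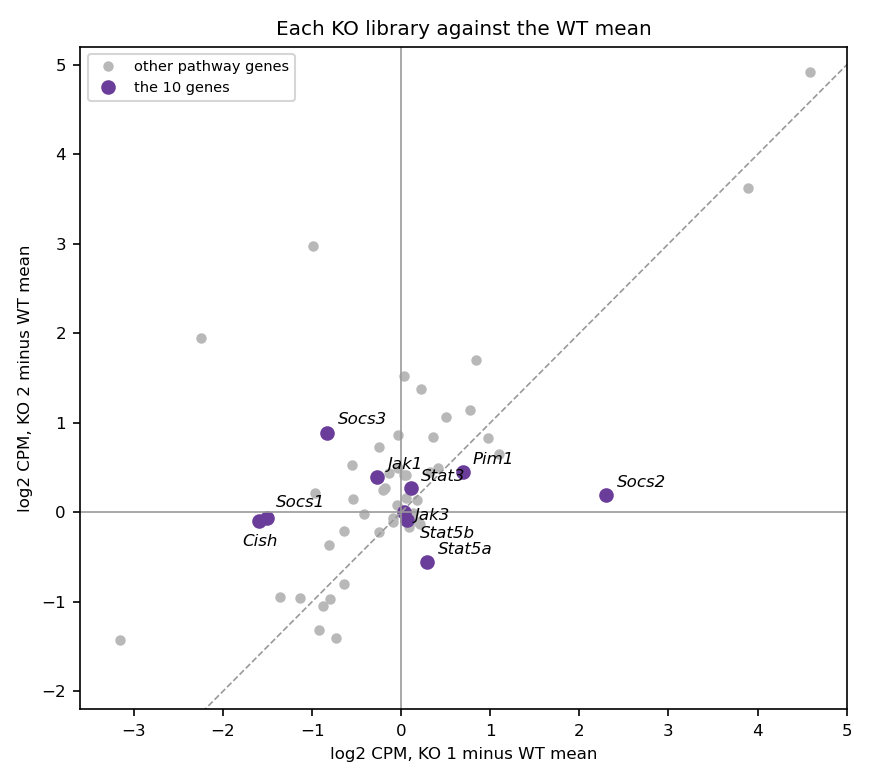
Log2 CPM of KO 1 (x axis) and KO 2 (y axis), each minus the WT mean, for the 10 genes (purple, named) and 46 other genes of the pathway (grey; Il6ra lies beyond the axes); the dashed line marks equal differences. Socs1 and Cish lie far left of the line near 0 on the y axis, Socs2 far right of it, and Pim1 close to the line in the upper right.

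Markers of other cell types also differed between the KO libraries. Of 9 B-cell markers, KO 2 had counts for all 9 and KO 1 for 5. The defining markers Ms4a1 and Pax5 were at 0 in KO 1 and in all WT libraries and at 36.0 and 7.54 CPM in KO 2. The summed B-cell list was at 62.9 to 71.7 CPM among WT mice, beside 289.6 CPM for KO 1 and 305 CPM for KO 2, and in KO 1 nearly all of it was Blk (268 CPM), which WT DN3 cells also held at 19.2 to 21.6 CPM. The 8 markers of double positive and mature T cells summed to 527 to 683 CPM among WT mice, beside 1315 CPM for KO 1 and 2683 CPM for KO 2, with 66.9 CPM of Cd8a in the first KO library and 858 CPM in the second. The myeloid list summed to 17.6 to 19.8 CPM among WT mice, beside 5.78 CPM for KO 1 and 13.1 CPM for KO 2, but its members differed in direction. Lyz2 fell from 16.8 to 18.4 CPM in WT mice to 0.154 and 1.19 CPM, while Itgam rose from 0.492 to 0.752 CPM to 4.81 and 6.87 CPM and Mpeg1 from 0.0836 to 0.351 CPM to 0.665 and 3.96 CPM. The dendritic list stayed under 1 CPM, and Cd14, Siglech, Krt5, Foxn1 and Pdgfra were at 0 everywhere. The NK and innate lymphoid list, with Gzma as its largest part, stood at 319 to 383 CPM among WT mice, beside 1588 CPM for KO 1 and 1589 CPM for KO 2. Of its 7 markers, KO 1 had counts for 3 and KO 2 for 5, beside 3 in WT 2 and 6 in each of WT 1, WT 3 and WT 4. The γδ T-cell list stood at 1500.5 to 1563 CPM among WT mice, beside 1766 CPM for KO 1 and 1746 CPM for KO 2, with Cd163l1 higher (35.4 to 49.9, 630.0 and 569.8 CPM) and Trgc1 lower in KO. The erythroid list stood at 3.09 to 12.1, 1.94 and 26.4 CPM. The thymic stroma list, mostly Epcam, stood at 148 to 159, 52.0 and 53.6 CPM. The part of these transcripts, of depth and of the mitochondrial share in the values of the 10 genes was not tested.

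Of 14 chains of receptors that signal through JAK1 or JAK3, 6 were higher and 3 lower in KO by edgeR's test, and 5 did not pass. Over all genes tested, 14.1% were higher and 16.5% lower. Il2ra, the interleukin-2 receptor α chain that marks DN3 cells, fell from 1881 CPM ± 164 to 1131 and 708 CPM. Il2rb, the β chain of the same receptor, rose from 0.868 ± 0.265 to 20.4 and 25.7 CPM, and Il9r from 4.02 ± 0.547 to 59.7 and 49.4 CPM. For Il9r the log2 rise was 3.78 (SE 0.175, adjusted p = 0.00031). Il6ra, which pairs with gp130 to signal through STAT3, had 10 WT counts in all (0.0383 to 0.125 CPM) and reached 6.81 and 38.3 CPM. Il7r, chosen after its values were seen, fell from 108 ± 2.97 to 69.0 and 61.4 CPM, a log2 difference of -0.73 (SE 0.0832, adjusted p = 0.00333). The shared chain Il2rg, likewise chosen afterwards, was at 153 ± 6.92, 157 and 204 CPM and did not pass. Among these chains there were thus calls in both directions, and there was none for the kinase genes Jak1, Jak2, Jak3 and Tyk2.

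Among further JAK and STAT genes, Jak2, Tyk2, Stat2, Stat4 and Stat6 did not pass edgeR's test.

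Of the other 6 SOCS and PIM genes, 2 rose and 2 fell, beside those shares of 14.1% higher and 16.5% lower over all genes. Pim2, a relative of Pim1, rose from 5.38 CPM ± 0.513 to 9.57 and 17.5 CPM, a log2 rise of 1.40 (SE 0.203, adjusted p = 0.00724). This was the direction of Pim1, and the call was likewise lost with limma-voom (adjusted p = 0.0747, range 9.86e-11 to 0.303). Socs6 fell from 40.3 ± 2.47 to 22.9 and 31.1 CPM. Socs4, higher in KO (41.3 ± 2.94 to 42.7 and 54.9 CPM, adjusted p = 0.0373), and Socs5, lower (27.0 ± 2.14 to 17.2 and 23.3 CPM, adjusted p = 0.0499), passed narrowly. Refits that left out WT 1, 2 or 3 lost the calls of Socs4, Socs5 and Socs6 (adjusted p of 0.104 to 0.165 in those refits, and of up to 0.80, 0.539 and 0.318 over 13 alternatives), and that of Socs4 was also lost without KO 2 (adjusted p = 0.0534). None of these 6 genes differed 2-fold between KO 1 and KO 2, unlike Cish and Socs1 to Socs3.

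Among 12 further restraints of the pathway, 2 rose and 2 fell, a share near the 30.7% called over all genes tested. Ptpn6, the gene of the phosphatase SHP-1, rose from 190.0 CPM ± 4.44 to 408 and 299 CPM, a log2 rise of 0.84 (SE 0.114, adjusted p = 0.00603). Ptpn1, another phosphatase that acts on JAK proteins, rose from 139 ± 5.50 to 186 and 196.5 CPM, a call lost with limma-voom (adjusted p = 0.0798, range 4.96e-11 to 0.353 over 13 alternatives). Cblb, a ubiquitin ligase, fell from 244 ± 15.9 to 128 and 97.6 CPM. Its log2 difference was -1.19 (SE 0.0824, adjusted p = 0.00076). Pias3, an inhibitor of STAT3, fell from 10.1 ± 0.335 to 5.78 and 5.15 CPM, a log2 difference of -0.92. Refits that left out WT 1, 2 or 3 gave log2 differences of -0.90 to -0.92 but lost the call (adjusted p = 0.0638, 0.0614 and 0.0608, range 3.22e-05 to 0.45). Ptpn2, Ptpn11, Ptprc and Sh2b3 were among the 8 that did not pass.

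Of 9 genes known to respond to STAT5, 2 rose and 3 fell, where 14.1% of all genes tested were higher and 16.5% lower. Bcl2, a survival gene that interleukin-7 maintains, fell from 155 CPM ± 6.78 to 70.6 and 79.7 CPM (log2 -1.01, SE 0.0664), as did Trgc1, a T-cell receptor γ constant region, from 415 ± 6.51 to 227 and 201 CPM. Ccnd2, a cyclin of growing cells, fell from 408 ± 11.8 to 45.9 and 152 CPM, a log2 difference of -2.06 (SE 0.407, adjusted p = 0.0181). Refits that left out WT 1, 2 or 3 lost this call (adjusted p = 0.0633, 0.0558 and 0.0561, range 1.19e-32 to 0.157). Ccnd3 rose from 265 ± 27.0 to 519 and 470.4 CPM, and Bcl2l1, chosen after its values were seen, rose from 23.0 ± 0.418 to 28.7 and 31.4 CPM (adjusted p = 0.0277). The call of Bcl2l1 was lost with limma-voom and in refits that left out WT 1, 2 or 3 (adjusted p = 0.449, 0.105, 0.107 and 0.104, range 0.000164 to 0.577). In this list Ccnd2, Mcl1 and Bcl6 differed at least 2-fold between KO 1 and KO 2, all 3 with KO 1 the lower. Mcl1 and Bcl6 did not pass the test and were chosen after their values were seen. Mcl1, a survival gene, had a WT mean of 359.7 CPM ± 37.5, beside 184 CPM for KO 1 and 416 CPM for KO 2, and Bcl6, a repressor that opposes STAT5, at 5.73 ± 0.851, 1.18 and 21.9 CPM. KO 1 was the lowest of all 6 libraries for 4 of these 9 genes (Bcl2, Ccnd2, Mcl1 and Bcl6) and not for Bcl2l1, Ccnd3, Myc, Osm or Trgc1. Among the 10 genes KO 1 was the lowest for 4 as well (Jak1, Socs1, Socs3 and Cish). Over all 13294 genes tested it was the lowest for 4784.

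Leaving out 1 KO mouse changed which of the 10 genes passed. Against WT, KO 1 alone gave 7 calls (Pim1, Stat5a and Socs2 higher, and Jak1, Socs1, Socs3 and Cish lower), with 68.5% of all genes tested called. KO 2 alone gave 5 calls (Pim1, Jak1, Stat3 and Socs3 higher, and Stat5a lower), with 61.9% called. With sex in the model, KO 1 is then set against WT 4 and KO 2 against the WT females, and the lone KO library is assumed to vary as the WT libraries do. Jak1, Stat5a and Socs3 were called in both with opposite signs, and Pim1 was called in both as higher.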

How the data were processed

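RNA of sorted DN3 thymocytes was amplified with a SMART-Seq v4 kit and read as paired ends, per the labels' protocols. The authors deposited unnormalized read counts for each Entrez gene from featureCounts on mm10, per the submitters' processing notes. The sources used here do not name the aligner, tool versions or strand setting. The authors' table also gives gene lengths, an other value used only for RPKM. Symbols and coordinates came from RefSeq (GRCm38.p6) by Entrez identifier (25275 matched, 1057 did not). No count column was left unmapped.

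The genotype test was run in edgeR 4.0.16 under R 4.3.3, with filterByExpr at a count minimum of 10, TMM scaling, a robust quasi-likelihood F-test with sex as an additive term, and Benjamini-Hochberg adjustment over 13294 genes. SE is the log2 difference divided by the square root of F, and 95% intervals use the moderated degrees of freedom. Log2 values of single libraries have 0.5 counts added. Alternatives used DESeq2 1.42.0 and limma 3.58.1. Scripts were tested on simulated data. The smallest count of the 10 genes was 94 (Socs2 in KO 2), and 3 counts correspond to 0.0724 to 0.224 CPM. Counting intervals would omit amplification error.

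The genes, lists and tests were chosen with earlier results of these data known. The text names the 10 genes, Tcf7, and up to 4 genes per pathway list with the largest changes among those that passed and reached 5 CPM. An interaction of genotype and sex was fitted after the values were seen. For its estimates only whether the adjusted p was under 0.05 is given, because no spread between KO mice enters it. A chi-square statistic per degree of freedom between WT libraries was 3.37 to 23.1 and between KO libraries 104, so no library was counted as a duplicate.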

Additional observations from a re-analysis of the deposited data

Results flagged for a closer look

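Pim1 in WT 4, at 84.3 CPM, stood apart from the other WT libraries (69.8 to 71.5 CPM), and Socs5 in WT 4, at 23.8 CPM, stood below them (28.0 to 28.2 CPM). WT 4 was the only male among the WT mice. Chance alone sets about 1 in 20 such groups of 4 apart.

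For 6 of the 10 genes the fitted KO against WT difference in the male pair stood apart from that in the females by more than the spread of the 3 WT females allows, as it did for 54.7% of all genes tested. The log2 differences, males minus females, were -0.72 for Jak1, 0.81 for Stat5a, -1.32 for Socs1, 1.95 for Socs2, -1.57 for Socs3 and -1.62 for Cish. No spread between KO mice enters this fit, which was added after the gap between them was seen, so it does not test that gap. With 1 KO mouse of each sex, sex and individual cannot be told apart.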

How the results depend on the processing

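Pim1 kept its direction under all 13 alternatives (log2 0.48 to 0.63) and its call under 11. It was lost with limma-voom and a spread per genotype and with the replicate number as a block (adjusted p = 0.0764 and 0.176). Of the 10 genes, 1 was called in the reported fit, 2 with DESeq2 (Stat3 and Pim1), 0 with limma-voom and 0 with the replicate block. Beside these counts of 0, edgeR's reported fit had 2 of the 10 genes under an unadjusted p of 0.05 (Stat3 and Pim1). Of all 13294 genes tested, 5828 were under it. Over all genes, 4076 were called in the reported fit, 5261 with DESeq2, 1457 with limma-voom and 748 with the replicate block. Leaving out 1 library gave 1665 to 9473 genes and 1 to 7 of the 10. Without WT 4 or KO 1 there were 8279 and 8536 genes and 5 of the 10 in each, and without KO 2 there were 9473 genes and 7 of the 10. Without WT 1, 2 or 3 there were 1665, 1714 and 1743 genes and Pim1 alone of the 10. Without WT 4, KO 1 is the only male left and the sex term takes up its value. That fit thus sets KO 2 against the WT females, as does the fit without KO 1. Their log2 differences were 0.41 and 0.42 for Jak1, -0.55 and -0.53 for Stat5a, and 0.86 and 0.87 for Socs3. No spread between KO mice enters the fits without WT 4, KO 1 or KO 2. The cause of the lower counts without WT 1, 2 or 3 was not tested.

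Directions turned for Jak3 (log2 -0.017 with total counts, -0.001 without WT 3, and -0.0052 to 0.027 over fits without 1 library), Stat5b (0.023 with the block) and Socs3 (-0.011 with the block, -0.73 to 0.87 over fits without 1 library). Over fits without 1 library Jak1 ranged from -0.33 (without KO 2) to 0.42 and Stat5a from -0.55 to 0.25 (without KO 2). The interaction of genotype and sex could not be fitted without WT 4, KO 1 or KO 2. The share of higher calls was 46.1% in the reported fit, 66.9% with limma-voom and 42.7% with total counts. The block also lost the calls of Ptpn6, Ccnd3, Ptpn1 and Il7r (adjusted p = 0.0515, 0.0508, 0.353 and 0.115). Bcl6 turned with limma-voom (-0.14), the block (-0.064) and without KO 2 (-2.06 to 1.88 over fits without 1 library), Mcl1 without WT 4 or KO 1 (-1.18 to 0.30) and Il2rg without KO 2 (-0.053 to 0.45). The replicate numbers only name the mice: deviations of WT and KO libraries with the same number correlated at -0.083 and 0.042 over genes, and the block, which replaced the sex term, left 1 residual degree of freedom. Depth limits Socs2 most among the 10 genes, since its value in KO 2 rests on 94 counts.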
